A study of Mus musculus with 32 samples.

Results

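The livers of Cyp2b-null males fed a high-fat diet deficient in choline and built from L-amino acids (CDAHFD, 4 libraries) were compared with those of Cyp2b-null males fed normal chow (ND, 4 libraries), 8 of the 32 RNA-seq libraries of the study. The libraries were chosen by their labels, from the table of counts that holds the males. All 8 came from C57BL/6 mice (C57Bl/6J in the methods of the study) with the Cyp2b9/10/13-null genotype, a deletion of the 3 hepatic genes Cyp2b9, Cyp2b10 and Cyp2b13 made with CRISPR/Cas9, so the ND-fed controls carried the deletion too. Feeding began at 10 weeks of age and lasted 8 weeks, and CDAHFD contained 62% fat and 0.1% methionine. WT males of the same strain, 4 libraries on each diet, entered the fit of the males. They and as many Cyp2b-null females were used to compare levels and to test whether the diet effect differed by genotype or by sex. Per the methods, the WT mice were bought from The Jackson Laboratory, while the Cyp2b-null line was developed by the authors. Genotype and source of the mice therefore cannot be told apart in comparisons with WT males. WT females, also 4 libraries on each diet, entered the fit of all 32 libraries and the check of sex. The labels number the 4 libraries of each group without naming a mouse for each, so the tests measure the spread between these libraries. The liver needs choline to make phosphatidylcholine and with it to export triglyceride in very low density lipoprotein, and diets that lack choline are used as models of nonalcoholic steatohepatitis (NASH), in which fat, inflammation and scarring occur together. CYP2B enzymes are microsomal monooxygenases that oxidize drugs, steroids and unsaturated fatty acids, and the receptor CAR (Nr1i3) induces their transcription.

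The deleted genes were low in all 8 libraries. In counts per 1000000 of the scaled library total (CPM), Cyp2b9 was at 1.97, 1.57, 2.28 and 0.872 CPM in the ND-fed and 0.475, 0.615, 0.576 and 0.404 CPM in the CDAHFD-fed libraries. Cyp2b10 was at 0.984, 0.224, 0.207 and 0.436 CPM in the ND-fed and 0, 0.615, 0.164 and 0 CPM in the CDAHFD-fed libraries. The only counts of Cyp2b13 in the 8 libraries were in ND-fed replicate 2, at 0.447 CPM (2 counts). Neither Cyp2b9 nor Cyp2b10 was called (edgeR adjusted p = 0.159 and 0.312), and Cyp2b13 was too low to test. In CPM the diets did not overlap for Cyp2b9, although its few counts did, at 18, 7, 11 and 4 on ND and 3, 6, 7 and 2 on CDAHFD. Cyp2b9 was called lower without a filter on low counts and with a likelihood ratio test (log2 change -1.64). In WT males Cyp2b9 was at 0 to 3.22 CPM on ND, a range that held all 4 values of ND-fed Cyp2b-null males, and at 13.6 to 67.9 CPM on CDAHFD, while Cyp2b10 was at 5.97 to 14.5 CPM on ND. Xist, the RNA of the inactive X chromosome, was at 0.219, 0, 3.11 and 0.436 CPM in the ND-fed and 0, 0.103, 0.164 and 0.202 CPM in the CDAHFD-fed libraries, against at least 142 CPM in every female library. Ddx3y, on the Y chromosome, was at 78.9 to 99.8 CPM on ND and 36.3 to 57.9 CPM on CDAHFD, and at most 0.236 CPM in the females. Hepatocyte markers were abundant on both diets, albumin (Alb) at 81526 to 94185 CPM on ND and 42238 to 66330.3 CPM on CDAHFD.

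The libraries held 10166959, 5100620, 5466511 and 5139320 assigned counts on ND and 5778230, 8365260, 9411558 and 4809344 on CDAHFD. ND-fed replicate 1 was the deepest and CDAHFD-fed replicate 4 the shallowest. A total of 3 counts corresponded to 0.328, 0.671, 0.621 and 0.654 CPM in the ND-fed and 0.475, 0.308, 0.247 and 0.606 CPM in the CDAHFD-fed libraries, which covers counting error only. Across genes, the log2 CPM of libraries of the same diet correlated with r of 0.969 to 0.978, and of different diets with r of 0.869 to 0.912, genes not being independent replicates. The first principal component held 71.6% of the variance and placed the 4 CDAHFD-fed libraries on one side and the 4 ND-fed libraries on the other. CDAHFD-fed replicate 4 had the lowest mean correlation with its own group (0.972) and a highest correlation with an ND-fed library of 0.908. Replicate 4 was also the highest of its group for ribosomal RNA, small noncoding RNA and the share of the 10 most abundant genes. None of these gaps was among the results flagged below. Ribosomal RNA took 4.03, 2.13, 0.510 and 6.59% of counts in the CDAHFD-fed and 3.73, 2.17, 1.92 and 3.03% in the ND-fed libraries. The summed level of the small noncoding RNAs Rmrp, Rpph1 and Rn7sk was 21.7, 8.31, 2.80 and 98.6 CPM on CDAHFD and 11.9, 9.62, 8.90 and 31.6 CPM on ND. The 10 genes with the most counts took 21.5, 19.4, 16.1 and 25.2% of counts on CDAHFD and 22.5, 20.8, 20.5 and 20.5% on ND.

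CDAHFD changed the expression of many of the genes that could be tested. Of 13460 genes tested with edgeR, 5015 (37.3%) were called at an adjusted p under 0.05, 2723 higher on CDAHFD (20.2%) and 2292 lower (17.0%). The rises were larger than the falls: 1754 called genes rose by more than 1 on the log2 scale and 546 fell by more than 1, while 352 rose and 58 fell by more than 3. The 4 CDAHFD-fed and 4 ND-fed values did not overlap for 4953 genes (36.8%), of which 4346 were also called (32.3% of those tested). The median log2 change of all genes tested was -0.0083. Scaling by library size alone, without TMM factors (0.901, 0.878, 0.885 and 0.894 on ND, 1.10, 1.17, 1.30 and 1.03 on CDAHFD), moved this median to 0.36 and split the calls into 5139 higher and 815 lower. That scaling kept 3538 of the 5015 calls (70.5%), and those of Adh1, C6, F2, Hnf4a, Nr1i2 and Ugt1a1, described with their lists, were among those lost. Where it moved a list's higher or lower calls by over 1.5 times (counts under 3 aside), their split into higher and lower by over 10 percentage points or the sign of the median, its values follow as by library size. Listed genes that did not enter the test, mostly for low counts, are counted as untested. Changes are given relative to the TMM-scaled total.

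Leaving out CDAHFD-fed replicate 4 had a small effect on the calls. With 3 against 4 libraries, 13714 genes were tested and 4783 called, 2618 higher and 2165 lower. Of the 5015 genes called with it, 4526 were called without it (90.2%), all in the same direction, 489 lost the call, and 257 other genes gained one. Only 17 called genes moved by more than 0.5, the largest move being 2.17. That gene was Gbp2b, an interferon-inducible GTPase. Gbp2b was at 6.56, 3.80, 2.69 and 2.40 CPM in the ND-fed and 0.158, 0, 0 and 1.21 CPM in the CDAHFD-fed libraries, and its log2 change went from -4.02 to -6.19, the lowest over the fits that left out 1 library (highest -3.41, without CDAHFD-fed replicate 3). Several of the others were male-biased liver genes, described with that list.

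The largest rises with no overlap between diets were in genes absent or nearly absent from the ND-fed livers. Gpnmb, a transmembrane glycoprotein of lipid-laden macrophages, was at 0, 0.671, 0.621 and 0 CPM in the ND-fed and 375, 369, 734 and 586 CPM in the CDAHFD-fed libraries (log2 change 10.83 ± 0.56 SE, edgeR adjusted p = 1.72e-09). Mmp12, macrophage elastase, was at 0.109, 0.895, 0 and 0 CPM in the ND-fed and 225, 224, 341 and 287 CPM in the CDAHFD-fed libraries (log2 change 10.15 ± 0.46 SE, edgeR adjusted p = 5.72e-11). All 4 CDAHFD-fed libraries were high for both genes, and all 4 ND-fed libraries were under 1 CPM. Clec4d, a C-type lectin receptor of myeloid cells, had no count on ND and 9.65, 8.20, 14.6 and 11.5 CPM on CDAHFD, which is at least 19.4-fold higher against a floor of 3 counts per library. The estrogen sulfotransferase Sult1e1 also had no count on ND and was at 4.90, 23.2, 6.66 and 7.88 CPM on CDAHFD (at least 18.7-fold higher). Replicate 2 was the high library, without which the bound was 11.4-fold, and Sult1e1 stayed called in each fit that left out 1 library (edgeR adjusted p of up to 0.0185). The fitted size of the first rises depended on single libraries. Without ND-fed replicate 2 the log2 change of Mmp12 was 11.86, and that of Gpnmb ranged from 10.16 to 11.47 when 1 library was left out, moving by over 1.5-fold without ND-fed replicates 1, 2 or 3.

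The largest falls were in the stearoyl-CoA desaturase Scd1, in male-biased genes and in genes of low level. Scd1 was at 10707, 19345, 20104 and 13623 CPM in the ND-fed and 61.7, 229.9, 65.5 and 181 CPM in the CDAHFD-fed libraries (log2 change -6.89 ± 0.90 SE, edgeR adjusted p = 5.58e-05), a 119-fold fall. Trhde, an ectoenzyme that degrades thyrotropin-releasing hormone, was at 4.81, 1.79, 5.38 and 4.36 CPM on ND and had no count on CDAHFD (at least 9.996-fold lower). In terms of CPM, the largest falls were those of Alb (log2 change -0.67 ± 0.17 SE, edgeR adjusted p = 0.00287), Scd1, apolipoprotein E (Apoe, log2 change -0.80 ± 0.17 SE), the serine protease inhibitor Serpina3k (log2 change -1.97 ± 0.33 SE) and Serpina1e, an alpha-1-antitrypsin gene. The largest gains in CPM were those of the heme scavenger hemopexin (Hpx, log2 change 0.94 ± 0.16 SE, edgeR adjusted p = 5.00e-05), complement C3, haptoglobin (Hp, log2 change 0.73 ± 0.14 SE), apolipoprotein A-IV (Apoa4, log2 change 2.54 ± 0.22 SE) and the IGF-binding protein Igfbp2 (log2 change 1.46 ± 0.21 SE). C3 was at 13004, 8366, 8326 and 8405 CPM on ND and 14878, 12588, 12459 and 13195 CPM on CDAHFD, so that ND-fed replicate 1 lay within the CDAHFD-fed range. Its call (log2 change 0.48 ± 0.18 SE, edgeR adjusted p = 0.0355) was lost without ND-fed replicates 2, 3 or 4 or CDAHFD-fed replicates 1 or 4 (edgeR adjusted p of up to 0.109).

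**Figure D1:**
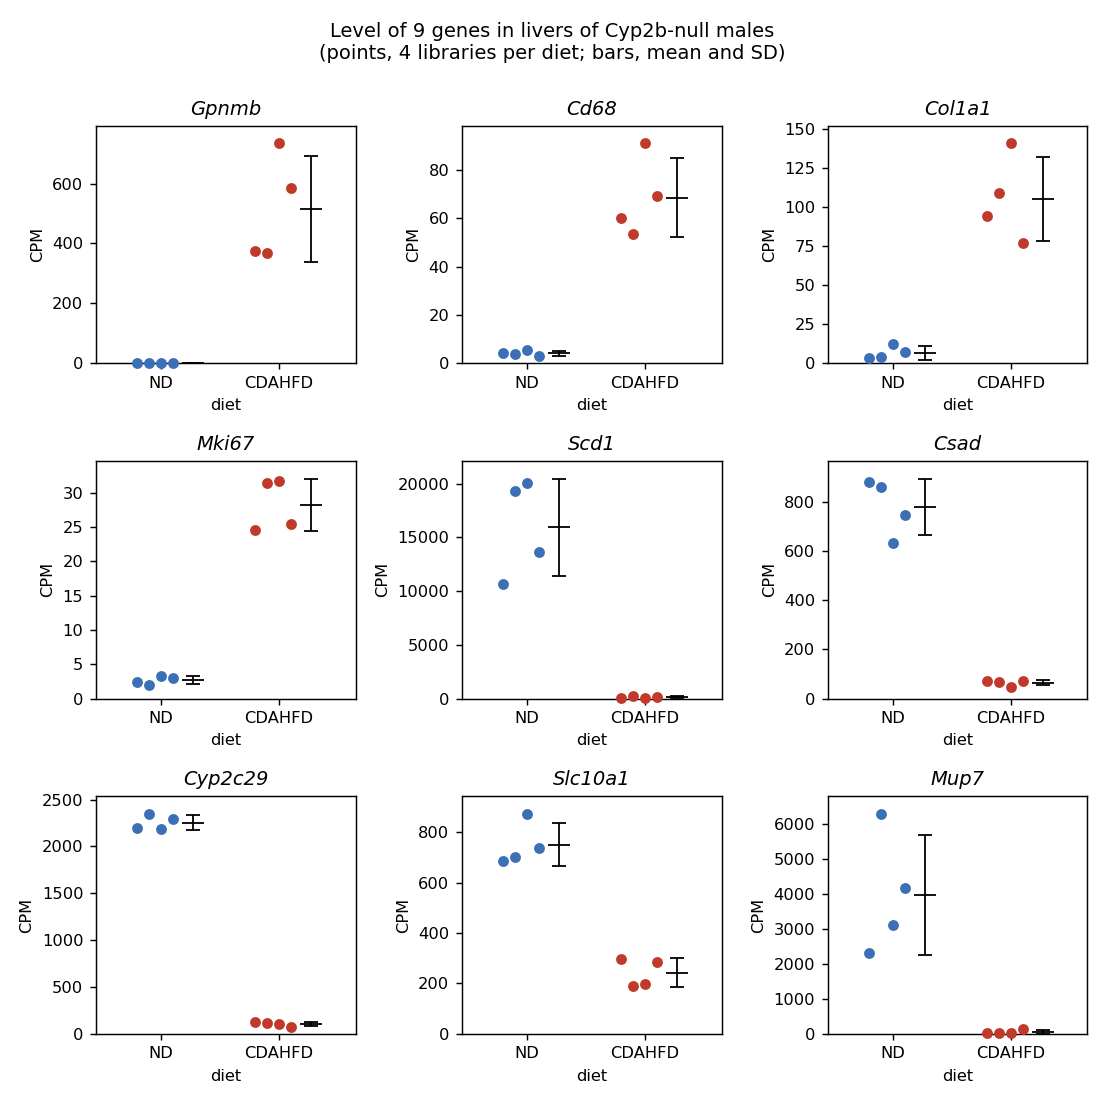
Level of 9 genes in each liver library (points, CPM on a linear axis from 0; bars, mean and SD of 4 libraries) for ND-fed and CDAHFD-fed Cyp2b-null males. The groups do not overlap for any of the 9 genes, with Gpnmb, Cd68, Col1a1 and Mki67 higher and Scd1, Csad, Cyp2c29, Slc10a1 and Mup7 lower on CDAHFD.

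Markers of monocytes and macrophages rose as a group. All 21 tested markers were called higher, with a median log2 change of 3.17, 1 untested, and all 21 without overlap between diets. Cd68, an endosomal glycoprotein of phagocytes, was at 4.48, 3.80, 5.59 and 3.05 CPM in the ND-fed and 60.1, 53.5, 91.0 and 69.1 CPM in the CDAHFD-fed libraries (log2 change 3.998 ± 0.28 SE, edgeR adjusted p = 2.25e-09). The pan-macrophage receptor Adgre1 (F4/80) was at 8.90 to 14.5 CPM in ND-fed and 39.2 to 77.8 CPM in CDAHFD-fed livers (log2 change 2.33 ± 0.27 SE, edgeR adjusted p = 1.86e-06). The chemokine receptor of inflammatory monocytes Ccr2 was at 0.436 to 1.79 CPM in ND-fed and 10.97 to 17.3 CPM in CDAHFD-fed livers (log2 change 3.33 ± 0.30 SE). Each CDAHFD-fed library exceeded every ND-fed library for these 3 genes. The integrin Itgam (log2 change 5.13 ± 0.35 SE) and the fractalkine receptor Cx3cr1 (log2 change 5.82 ± 0.48 SE) rose, as did the growth factor receptor Csf1r (log2 change 2.01 ± 0.20 SE). Without ND-fed replicate 3 the log2 change of Cx3cr1 was 6.83. The summed level of the markers was 231, 225, 222 and 177 CPM in the ND-fed and 1483, 1423, 2389.7 and 1871 CPM in the CDAHFD-fed libraries, Lyz2 having the most counts. In a bulk liver library, more cells of a type and more RNA per cell cannot be told apart. Of the markers tested, 10 had a diet effect that differed from that of Cyp2b-null females, against 472 of all 14020 genes tested (3.37%). Among the 10 were Itgam (males minus females 2.70 ± 0.53 (SE), edgeR adjusted p = 0.00287) and Cd68 (males minus females 1.67 ± 0.38 (SE), edgeR adjusted p = 0.0102).

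Genes of lipid-associated macrophages, which surround dying fat-laden cells and take up lipid, rose with them. Of 21 tested, 18 were called higher and 0 lower, with a median log2 change of 3.47, 1 untested. Spp1, the matrix-binding cytokine osteopontin, was at 14.2, 12.3, 23.4 and 16.1 CPM in the ND-fed and 102, 221, 287 and 117 CPM in the CDAHFD-fed libraries (log2 change 3.47 ± 0.45 SE, edgeR adjusted p = 4.48e-05). Lipoprotein lipase (Lpl), which releases fatty acids from lipoproteins, was at 16.8 to 37.3 CPM in ND-fed and 349 to 458 CPM in CDAHFD-fed livers (log2 change 3.89 ± 0.31 SE). The groups did not overlap for either gene. Trem2, the lipid-sensing receptor of these cells, is listed at 0 counts in all 8 libraries, so it could not be assessed. Markers of the resident Kupffer cells moved in both directions, and of 15, 6 were called higher and 3 lower (median 0.29, or 0.65 by library size with 8 higher and 2 lower). Timd4, a phosphatidylserine receptor of long-lived Kupffer cells, fell (3.49 to 7.44 CPM on ND, 0.615 to 1.58 CPM on CDAHFD, log2 change -2.42 ± 0.39 SE, edgeR adjusted p = 3.56e-05). The haptoglobin-hemoglobin receptor Cd163 fell (8.72 to 17.9 CPM on ND, 1.15 to 5.45 CPM on CDAHFD, log2 change -2.61 ± 0.49 SE). The soluble scavenger protein Cd5l rose (log2 change 1.98 ± 0.27 SE, edgeR adjusted p = 1.86e-05), as did the scavenger receptor Marco (log2 change 2.77 ± 0.36 SE). The C-type lectin Clec4f was at 62.8 to 88.9 CPM on ND and 64.9 to 114 CPM on CDAHFD and was not called (adjusted p = 0.361). The Kupffer markers summed to 869, 955, 844 and 881 CPM in the ND-fed and 984, 779, 997 and 1053 CPM in the CDAHFD-fed libraries. Their most abundant gene was the complement gene C6, which hepatocytes also express and which fell (286 to 376 CPM on ND, 169 to 235 CPM on CDAHFD, log2 change -0.74 ± 0.19 SE).

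Lysosomal genes, which degrade engulfed lipid and protein, rose in part. Of 45 tested, 26 were called higher and 4 lower, with a median log2 change of 0.44, or 0.81 by library size with 34 higher and 1 lower. Of those called higher, Ctsd, Atp6v0d2, Cd63, Ctsb, Ctsk, Ctsl, Ctss, Ctsz and Cd68 were also on the macrophage lists above. Ctsd, the aspartyl protease cathepsin D, was at 344, 421, 391 and 372 CPM in the ND-fed and 872, 964, 1339 and 1042 CPM in the CDAHFD-fed libraries, without overlap (log2 change 1.47 ± 0.15 SE, edgeR adjusted p = 1.02e-07). The alpha-galactosidase gene Gla rose (6.76 to 10.5 CPM on ND, 19.3 to 23.4 CPM on CDAHFD, log2 change 1.27 ± 0.19 SE). The proton pump subunits Atp6v1a (log2 change 0.58 ± 0.13 SE) and Atp6v0d2 (log2 change 4.64 ± 0.36 SE), the second found mainly in macrophages and osteoclasts, rose as well. Lamp1, a structural membrane protein of lysosomes, was at 636 to 689.5 CPM on ND and 676 to 721 CPM on CDAHFD and was not called (adjusted p = 0.603). The diet effect on Atp6v0d2 was larger than in Cyp2b-null females (males minus females 3.91 ± 0.59 (SE), edgeR adjusted p = 0.000304). Because many lysosomal promoters carry the element bound by TFEB and related factors, the core TCACGTG was looked for on both strands in the 250 bases upstream of each start in the RefSeq promoter table (GRCm38.p6). It was present upstream of 3.58% of 27025 genes, 5.87% of the tested genes with a promoter there, and 8 of the 34 lysosomal genes that matched (23.5%). It stood upstream of 3 of 19 matched lysosomal genes called higher, 1 of 4 called lower and 4 of 11 not called. The 3 that were called higher are shown 5′ to 3′ with the match in capitals, as a description of the sequence only, and adjoining matches on opposite strands run together.
Ctsd, chr7:142387828-142388077, minus strand: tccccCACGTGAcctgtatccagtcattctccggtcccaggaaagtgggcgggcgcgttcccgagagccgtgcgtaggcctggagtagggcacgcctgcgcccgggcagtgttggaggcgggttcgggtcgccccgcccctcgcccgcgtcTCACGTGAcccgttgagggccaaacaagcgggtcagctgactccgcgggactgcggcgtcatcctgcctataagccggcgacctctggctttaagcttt
Gla, chrX:134601006-134601255, minus strand: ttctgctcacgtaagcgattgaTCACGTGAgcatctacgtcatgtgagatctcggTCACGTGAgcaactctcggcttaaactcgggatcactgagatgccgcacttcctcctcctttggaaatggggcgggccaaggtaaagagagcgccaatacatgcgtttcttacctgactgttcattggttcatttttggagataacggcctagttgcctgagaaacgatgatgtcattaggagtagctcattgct
Atp6v1a, chr16:44139260-44139509, minus strand: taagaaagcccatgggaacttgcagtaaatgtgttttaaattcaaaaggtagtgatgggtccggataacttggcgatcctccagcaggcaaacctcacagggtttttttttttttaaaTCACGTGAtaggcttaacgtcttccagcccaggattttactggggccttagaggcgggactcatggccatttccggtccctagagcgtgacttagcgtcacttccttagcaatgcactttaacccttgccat

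Chemokines, which recruit leukocytes, were mostly higher. Of 18 tested chemokines and receptors, 14 were called higher and 2 lower (median 2.42, or 2.33 with genes lacking a count on ND set at their lower bound and 1.79 without a filter on low counts, 15 untested). Ccl2, the main attractant of monocytes, was at 0.437, 0, 1.04 and 0.436 CPM in the ND-fed and 4.43, 6.36, 5.10 and 3.03 CPM in the CDAHFD-fed libraries (log2 change 3.28 ± 0.53 SE, edgeR adjusted p = 3.07e-05). Ccr1, a receptor for several CC chemokines, had no count on ND and 3.64, 1.44, 3.12 and 3.84 CPM on CDAHFD (at least 5.29-fold higher). Cxcl10, an interferon-induced attractant of T cells, rose (1.31 to 2.69 CPM on ND, 6.06 to 10.3 CPM on CDAHFD, log2 change 1.95 ± 0.32 SE). Ccl25, a ligand for gut-homing T cells, fell (2.90 to 4.80 CPM on ND, 0.820 to 1.58 CPM on CDAHFD, log2 change -1.82 ± 0.44 SE). A list of interleukin and TNF family genes also held Csf1, Ifngr1 and Ifngr2, which were called higher. Of its 27 tested genes, 19 were called higher and 2 lower (median 1.10, 9 untested). The interleukin-1 receptor antagonist Il1rn rose (0.671 to 2.69 CPM on ND, 24.3 to 31.3 CPM on CDAHFD, log2 change 4.30 ± 0.33 SE, edgeR adjusted p = 1.76e-09). The NF-kappa-B inhibitor Tnfaip3 rose (0 to 1.86 CPM on ND, 9.74 to 21.0 CPM on CDAHFD, log2 change 3.47 ± 0.38 SE), and the receptor subunit Il1rap fell (log2 change -1.16 ± 0.13 SE). Il1b itself was at 1.97, 1.12, 0.828 and 0.218 CPM on ND and 2.53, 1.85, 3.95 and 3.23 CPM on CDAHFD, groups that overlapped. Its call (log2 change 1.34 ± 0.52 SE, edgeR adjusted p = 0.0453) was lost without ND-fed replicates 2, 3 or 4 or CDAHFD-fed replicates 1, 3 or 4 (edgeR adjusted p of up to 0.152). Without ND-fed replicate 1 its log2 change was 1.98. Tnf is listed at 0 counts in all 8 libraries.

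Antigen presentation and interferon genes were also raised. All 7 tested MHC class II genes were called higher (median 1.92, 4 untested). The invariant chain Cd74 was at 50.8 to 61.9 CPM in ND-fed and 153 to 266 CPM in CDAHFD-fed livers (log2 change 1.92 ± 0.29 SE, edgeR adjusted p = 7.24e-05), and the class II chains H2-Aa and H2-Ab1 rose by 1.78 and 2.16 on the log2 scale. Of 35 interferon response genes, 21 were called higher and 0 lower (median 0.85, 1 untested). The interferon-inducible gene Gbp2b, described above and not on this list, was called lower (log2 change -4.02). The transcription factor Irf7 rose (24.4 to 37.4 CPM on ND, 66.2 to 85.4 CPM on CDAHFD, log2 change 1.20 ± 0.16 SE, edgeR adjusted p = 2.99e-06). The oligoadenylate synthetase Oas3 rose (0.224 to 1.53 CPM on ND, 6.33 to 10.9 CPM on CDAHFD, log2 change 3.32 ± 0.41 SE, or 4.22 without ND-fed replicate 1). Of 28 genes of inflammasomes, necroptosis and apoptosis, 15 were called higher and 1 lower (median 0.52). The necroptosis effector Mlkl rose (2.68 to 5.25 CPM on ND, 14.1 to 16.03 CPM on CDAHFD, log2 change 1.93 ± 0.22 SE). The inflammatory caspase Casp1 rose (0.207 to 1.74 CPM on ND, 3.90 to 7.48 CPM on CDAHFD, log2 change 2.38 ± 0.52 SE).

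Markers of lymphocytes and neutrophils were low. Of 7 tested, 5 were called higher and 0 lower (median 2.47, or 1.76 to 1.84 without ND-fed replicates 2 or 4 or CDAHFD-fed replicate 4, 24 untested). Without a filter on low counts 9 were called higher (median 1.56). They summed to 17.4, 17.2, 16.1 and 13.7 CPM in the ND-fed and 41.9, 25.6, 43.3 and 45.9 CPM in the CDAHFD-fed libraries, Foxp3 having the most counts and not being called. The defining T and B cell genes Cd3e (0 to 0.656 CPM on ND, 0.205 to 0.808 on CDAHFD), Cd8a (0 to 0.895 and 0.308 to 2.83) and Cd79a (0 to 0.447 and 0.202 to 1.74) were too low to test. The neutrophil calgranulin S100a8 was higher in every CDAHFD-fed library, at 0 to 0.671 CPM on ND and 2.21 to 4.19 CPM on CDAHFD (log2 change 3.95 ± 0.78 SE, edgeR adjusted p = 0.000298), and so was its partner S100a9, at 0 to 0.224 CPM on ND and 2.06 to 4.04 CPM on CDAHFD (log2 change 3.98 ± 0.59 SE). The log2 change of S100a8 was 5.39 without ND-fed replicate 2. Their part in the other results was not tested.

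Genes of fibrosis rose. Fibrillar collagens are laid down mainly by activated hepatic stellate cells, and their cross-linking stabilizes scar tissue. Of 21 tested collagens, 13 were called higher and 2 lower, with a median log2 change of 1.73, 6 untested. Col1a1 was at 3.17, 3.80, 12.6 and 6.98 CPM in the ND-fed and 94.3, 109, 141 and 77.0 CPM in the CDAHFD-fed libraries (log2 change 4.05 ± 0.37 SE, edgeR adjusted p = 5.37e-07). Col3a1 was at 21.1, 14.8, 38.1 and 21.1 CPM in the ND-fed and 220.3, 246, 323 and 212 CPM in the CDAHFD-fed libraries (log2 change 3.40 ± 0.25 SE, edgeR adjusted p = 5.72e-09). For both, the lowest CDAHFD-fed library was above the highest ND-fed one. Col1a2, the other chain of collagen I, rose as well (log2 change 3.28 ± 0.25 SE). Col27a1 fell (17.2 to 38.8 CPM on ND, 3.23 to 7.43 CPM on CDAHFD, log2 change -2.24 ± 0.26 SE). Among 25 other matrix proteins, 19 were called higher and 1 lower (median 1.66, 1 untested). The small proteoglycan Lum rose (3.13 to 6.12 CPM on ND, 23.8 to 46.8 CPM on CDAHFD, log2 change 2.78 ± 0.32 SE). Thrombospondin-1 (Thbs1), an activator of latent TGF-beta, rose (0.109 to 1.45 CPM on ND, 6.80 to 12.7 CPM on CDAHFD, log2 change 3.69 ± 0.45 SE), more than in Cyp2b-null females (males minus females 2.71 ± 0.59 (SE), edgeR adjusted p = 0.00745). Fibronectin (Fn1), which hepatocytes secrete into plasma, was at 1261 to 1539.6 CPM on ND and 1358 to 1856 CPM on CDAHFD and was not called.

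Of 25 tested proteases, inhibitors and cross-linkers of the matrix, 22 were called higher and 2 lower (median 2.63, 4 untested). Timp1, a tissue inhibitor of metalloproteinases, was at 0.328, 0, 0.207 and 0 CPM in the ND-fed and 4.59, 7.69, 7.48 and 4.04 CPM in the CDAHFD-fed libraries (log2 change 5.01 ± 0.55 SE, edgeR adjusted p = 2.18e-07). The cross-linking enzyme Loxl2 was at 1.97 to 4.76 CPM in ND-fed and 11.9 to 16.8 CPM in CDAHFD-fed livers (log2 change 2.26 ± 0.32 SE). Both were higher in every CDAHFD-fed library. Leaving out ND-fed replicate 1 moved the log2 change of Timp1 to 6.05. Of 17 stellate cell markers, 10 were called higher and 4 lower (median 0.93, or 1.33 by library size with 12 higher and 2 lower, 2 lower without ND-fed replicate 1, 2 untested). They summed to 220.4, 183, 212 and 213 CPM in the ND-fed and 304, 285, 356 and 313 CPM in the CDAHFD-fed libraries, Reln having the most counts. The myofibroblast actin Acta2 was at 0.437, 1.57, 1.45 and 0 CPM on ND and 5.69, 5.74, 8.80 and 6.67 CPM on CDAHFD (log2 change 3.04 ± 0.48 SE, edgeR adjusted p = 2.31e-05). Lrat, which makes the retinyl esters that quiescent stellate cells store, was at 15.9 to 26.6 CPM on ND and 18.0 to 29.4 CPM on CDAHFD and was not called (adjusted p = 0.623). Of 27 TGF-beta family genes, 13 were called higher and 3 lower (median 0.61, or 0.98 by library size with 16 higher and 1 lower). Tgfb1 rose (4.36 to 9.11 CPM on ND, 22.5 to 33.1 CPM on CDAHFD, log2 change 1.97 ± 0.21 SE).

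Cell cycle genes were higher on CDAHFD, with 28 of 35 tested called higher and 1 lower (median 2.10, 1 untested). Mki67, a nuclear antigen of cycling cells, was at 2.41, 2.01, 3.31 and 3.05 CPM in the ND-fed and 24.5, 31.4, 31.7 and 25.5 CPM in the CDAHFD-fed libraries, without overlap (log2 change 3.40 ± 0.24 SE, edgeR adjusted p = 3.41e-10). Cyclin D1 (Ccnd1), which drives exit from G1, rose (23.9 to 38.8 CPM on ND, 243 to 299.9 CPM on CDAHFD, log2 change 3.03 ± 0.23 SE), more than in Cyp2b-null females (males minus females 2.17 ± 0.42 (SE), edgeR adjusted p = 0.00441). The replication clamp Pcna rose (log2 change 0.78 ± 0.17 SE). The thymidine kinase Tk1, the only member called lower, fell (22.0 to 28.0 CPM on ND, 7.48 to 8.70 CPM on CDAHFD, log2 change -1.67 ± 0.17 SE). Of 21 p53 targets, 11 were called higher and 1 lower (median 0.68, 2 untested). The cyclin-dependent kinase inhibitor Cdkn1a rose (0.207 to 2.68 CPM on ND, 10.9 to 20.2 CPM on CDAHFD, log2 change 3.57 ± 0.44 SE), and Mdm2, which degrades p53, was at 20.7 to 31.98 CPM on ND and 23.6 to 31.3 CPM on CDAHFD and was not called. Fetal and injury genes of hepatocytes were higher in 11 of 13 cases and lower in 0 (median 2.24, 5 untested). The imprinted RNA H19 was at 0.437, 2.01, 6.42 and 1.74 CPM on ND and 22.1, 35.3, 47.6 and 24.8 CPM on CDAHFD (log2 change 3.75 ± 0.49 SE, edgeR adjusted p = 1.63e-05), the change being 4.74 without ND-fed replicate 3. Alpha-fetoprotein (Afp) was at 0 to 2.40 CPM on ND and 3.32 to 6.15 CPM on CDAHFD (log2 change 2.24 ± 0.44 SE), and its change was 2.91 without ND-fed replicate 4.

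Other cell types moved less evenly. Of 16 cholangiocyte and ductular markers, 9 were called higher and 0 lower (median 1.25, 5 untested). Of the defining genes Krt19, Krt7, Sox9 and Epcam, Epcam alone was called. The adhesion molecule Epcam was at 0.875, 1.12, 3.31 and 0.436 CPM on ND and 3.16, 6.36, 8.88 and 3.03 CPM on CDAHFD (log2 change 1.99 ± 0.65 SE, edgeR adjusted p = 0.0214), groups that overlapped, and the call was lost without ND-fed replicates 1, 2 or 4 or CDAHFD-fed replicate 3 (edgeR adjusted p of up to 0.0789), its log2 change being 2.73 without ND-fed replicate 3. Krt19 was at 0.447 to 3.93 CPM on ND and 0.808 to 4.93 CPM on CDAHFD, Krt7 at 0.224 to 2.69 CPM on ND and 1.41 to 3.21 CPM on CDAHFD and Sox9 at 4.76 to 7.54 CPM on ND and 5.05 to 9.13 CPM on CDAHFD. Bicc1, an RNA-binding protein of duct cells, rose (2.91 to 4.58 CPM on ND, 12.5 to 32.4 CPM on CDAHFD, log2 change 2.46 ± 0.40 SE, edgeR adjusted p = 0.000102). The genes on this list summed to 565, 476, 537 and 421 CPM in the ND-fed and 1305, 1773, 1392 and 1071 CPM in the CDAHFD-fed libraries, Krt8 having the most counts. Whether this sum follows duct cells was not tested, and Krt19, Krt7 and Sox9 were not called. Of 23 endothelial markers, 7 were called higher and 1 lower (median 0.12, or 0.49 by library size with 11 higher and 0 lower, or -0.016 without CDAHFD-fed replicate 4, 1 untested). Lyve1, the hyaluronan receptor of sinusoidal endothelium, was at 4.35 to 7.41 CPM in ND-fed and 11.1 to 22.4 CPM in CDAHFD-fed livers (log2 change 1.60 ± 0.26 SE, edgeR adjusted p = 4.54e-05). The sinusoidal lectin Clec4g was at 37.3 to 49.7 CPM on ND and 34.0 to 59.6 CPM on CDAHFD and was not called. The endothelial markers summed to 547, 433, 403 and 471 CPM in the ND-fed and 533, 411, 606 and 689.5 CPM in the CDAHFD-fed libraries, Stab1 having the most counts. Annexins and S100 proteins, which bind calcium and membranes, were higher in 12 of 17 cases and lower in 1 (median 2.09, 2 untested). Cytoskeleton and adhesion genes were higher in 23 of 27 cases and lower in 0 (median 1.79, 2 untested). Anxa2 rose (9.73 to 11.99 CPM on ND, 122 to 222 CPM on CDAHFD, log2 change 3.90 ± 0.22 SE, edgeR adjusted p = 4.86e-11). The intermediate filament vimentin (Vim), which mesenchymal and immune cells express, rose (10.9 to 23.6 CPM on ND, 116 to 169 CPM on CDAHFD, log2 change 3.16 ± 0.30 SE).

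Genes of fatty acid synthesis fell. The liver makes palmitate with fatty acid synthase, elongates it with ELOVL enzymes and desaturates it with SCD enzymes, under the control of SREBP-1c. Of 30 tested genes, 19 were called lower and 5 higher, with a median log2 change of -0.98, or -0.63 by library size with 8 higher and 18 lower, 3 untested. Fasn was at 831, 661, 643 and 549 CPM in the ND-fed and 169.7, 224, 172 and 219 CPM in the CDAHFD-fed libraries (log2 change -1.77 ± 0.29 SE, edgeR adjusted p = 0.000125). Srebf1 was at 229.6, 174, 170.0 and 206 CPM in the ND-fed and 101, 101, 70.2 and 120.2 CPM in the CDAHFD-fed libraries (log2 change -0.997 ± 0.22 SE). Both genes were lower in all 4 CDAHFD-fed libraries than in any ND-fed library. Elovl3, of very long saturated chains, fell (283 to 659 CPM on ND, 6.41 to 13.5 CPM on CDAHFD, log2 change -5.59 ± 0.54 SE). Elovl2, of polyunsaturated chains, fell (805 to 1004 CPM on ND, 370.2 to 526 CPM on CDAHFD, log2 change -1.002 ± 0.16 SE), while Elovl7 rose (0.109 to 0.224 CPM on ND, 2.42 to 7.69 CPM on CDAHFD, log2 change 4.74 ± 0.67 SE, edgeR adjusted p = 6.64e-06). Reads of the closely related Scd genes may be shared. The fall of Elovl3 differed from the change in Cyp2b-null females (males minus females -5.02 ± 0.94 (SE), edgeR adjusted p = 0.00348).

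Cholesterol synthesis genes were lower in 17 of 27 cases and higher in 1 (median -0.60, or -0.23 by library size with 3 higher and 9 lower). Tm7sf2, a sterol reductase, fell (209 to 244 CPM on ND, 56.2 to 75.2 CPM on CDAHFD, log2 change -1.75 ± 0.14 SE, edgeR adjusted p = 1.76e-09). Of 15 genes of cholesterol efflux and LXR targets, 5 were called higher and 3 lower (median 0.021, or 0.39 by library size with 8 higher and 2 lower, or -0.073 to -0.0044 without CDAHFD-fed replicates 2 or 4, 5 lower without CDAHFD-fed replicate 1, 6 higher and 5 lower without a filter, 2 untested). The exporter Abcg1 rose (5.23 to 10.6 CPM on ND, 28.7 to 44.9 CPM on CDAHFD, log2 change 2.17 ± 0.23 SE). The exporter Abca1 was at 192 to 236 CPM on ND and 122 to 212 CPM on CDAHFD and was not called. Without CDAHFD-fed replicate 4 it was called lower (log2 change -0.52, edgeR adjusted p = 0.0243).

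Lipid droplet genes were called higher in 4 and lower in 4 of 19 cases, shares near those over all genes (median -0.13, or 0.24 by library size with 7 higher and 4 lower, 2 untested). Plin2, the coat protein of hepatocyte droplets, was at 437, 797, 634 and 644 CPM on ND and 708, 508, 537 and 514 CPM on CDAHFD and was not called (adjusted p = 0.502). G0s2, an inhibitor of the lipase ATGL, fell (39.9 to 119 CPM on ND, 10.6 to 16.2 CPM on CDAHFD, log2 change -2.43 ± 0.37 SE). Cidec, which fuses droplets, was called higher (log2 change 1.53 ± 0.45 SE, edgeR adjusted p = 0.0139) with overlapping groups, 3.50 to 18.3 CPM on ND and 16.6 to 33.2 CPM on CDAHFD, and the call was lost in a fit of the 8 libraries alone (log2 change 1.57). Among 16 fatty acid uptake genes, 6 were called higher and 4 lower (median -0.050, or 0.32 by library size, or 0.0015 to 0.054 without ND-fed replicates 3 or 4, 2 untested). The fatty acid translocase Cd36 rose (49.3 to 126 CPM on ND, 261 to 388 CPM on CDAHFD, log2 change 1.86 ± 0.29 SE). Fabp1, the main binding protein of hepatocytes, fell (2462 to 3942 CPM on ND, 974 to 1377 CPM on CDAHFD, log2 change -1.48 ± 0.18 SE, edgeR adjusted p = 1.15e-06). Of 31 genes of apolipoproteins and lipoprotein assembly, 17 were called lower and 3 higher (median -0.50, or -0.14 by library size with 4 higher and 11 lower, 1 untested). Mttp, which loads triglyceride onto apolipoprotein B, fell (440.3 to 504 CPM on ND, 192 to 241 CPM on CDAHFD, log2 change -1.08 ± 0.12 SE, edgeR adjusted p = 2.10e-07). Apob itself was at 9426 to 12673 CPM on ND and 7364 to 11406 CPM on CDAHFD and was not called.

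Fatty acid oxidation genes were lower in 23 of 43 cases and higher in 3 (median -0.43, or -0.074 by library size with 6 higher and 11 lower). Cpt1a, the entry step of mitochondrial oxidation, was at 402, 484, 458 and 509.6 CPM on ND and 821, 536, 620.4 and 752 CPM on CDAHFD and rose (log2 change 0.56 ± 0.14 SE, edgeR adjusted p = 0.00373). The omega-hydroxylases Cyp4a10 and Cyp4a14 were not called. Cyp4a10 was at 205, 323, 310.4 and 406 CPM in the ND-fed and 418, 167, 190.2 and 153 CPM in the CDAHFD-fed libraries. Cyp4a14 was at 339.5, 290.1, 272 and 610.3 CPM in the ND-fed and 547, 144, 176 and 139.8 CPM in the CDAHFD-fed libraries. CDAHFD-fed replicate 1 was the high library for both. Of 14 Cyp4 genes, 7 were called lower and 3 higher (median -0.59, 2 untested), the members of the Cyp4a cluster being so alike that their reads may be shared. Respiratory chain subunits were lower in 43 of 74 cases and higher in 0 (median -0.45, or -0.085 by library size with 1 higher and 4 lower, 10 untested). The complex I subunit Ndufb11 was at 129 to 182 CPM in ND-fed and 77.1 to 95.7 CPM in CDAHFD-fed livers (log2 change -0.91 ± 0.15 SE). The share of counts from mitochondrially encoded RNA was 0.799, 0.721, 0.645 and 0.811% on ND and 0.534, 0.393, 0.374 and 0.516% on CDAHFD.

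Genes of bile acid synthesis and transport fell in 19 of 27 cases and rose in 3 (median -0.68, or -0.32 by library size with 4 higher and 12 lower, 2 untested). Slc10a1, the sinusoidal uptake carrier NTCP, was at 688, 701, 874 and 739 CPM in the ND-fed and 298, 189.6, 197 and 284 CPM in the CDAHFD-fed libraries (log2 change -1.63 ± 0.16 SE, edgeR adjusted p = 2.67e-08). The canalicular export pump Abcb11 fell (939 to 1129.5 CPM on ND, 492 to 603 CPM on CDAHFD, log2 change -0.92 ± 0.13 SE). The groups did not overlap for either gene. Cyp7a1, the rate-limiting enzyme, was at 117, 125, 218 and 188 CPM on ND and 99.3, 103, 111 and 174 CPM on CDAHFD and was not called (adjusted p = 0.490). The basolateral exporter Abcc4 rose (0.872 to 2.91 CPM on ND, 6.48 to 12.5 CPM on CDAHFD, log2 change 2.26 ± 0.31 SE, edgeR adjusted p = 4.25e-06). Slc51b, a subunit of the basolateral transporter OST, was at 0 to 0.218 CPM on ND and 0.606 to 3.999 CPM on CDAHFD (ratio 18.97, exact 95% counting interval 6.27 to 93.9). The change of Abcc4 differed from that in Cyp2b-null females (males minus females 3.16 ± 0.49 (SE), edgeR adjusted p = 0.000166). The bile acid receptor Nr1h4 (FXR) fell (110.2 to 143 CPM on ND, 62.002 to 80.5 CPM on CDAHFD, log2 change -0.83 ± 0.15 SE).

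CDAHFD lacks choline and is low in methionine. Of 28 choline and phosphatidylcholine genes, 5 were called higher and 11 lower (median -0.22, or 0.14 by library size with 8 higher and 5 lower, 4 untested). Pemt, which makes phosphatidylcholine by methylation, was at 260.5, 320.3, 379.7 and 349 CPM on ND and 291, 296, 227 and 270.3 CPM on CDAHFD. Chka, the choline kinase of the other route, was at 21.5 to 42.7 CPM on ND and 17.6 to 37.0 CPM on CDAHFD. Neither was called. Chpt1, which joins the choline headgroup to diacylglycerol, was at 291, 437, 332 and 386 CPM in the ND-fed and 101, 89.4, 95.6 and 94.8 CPM in the CDAHFD-fed libraries (log2 change -1.93 ± 0.15 SE, edgeR adjusted p = 1.19e-09), without overlap. The acyltransferase Lpcat2, of inflammatory cells, rose (0.436 to 2.68 CPM on ND, 5.54 to 11.3 CPM on CDAHFD, log2 change 2.20 ± 0.39 SE). Among 37 methionine cycle and one-carbon genes, 4 were called higher and 15 lower (median -0.31, or 0.043 by library size with 9 higher and 11 lower, 2 untested). Mat2a, the S-adenosylmethionine synthase that is low in resting hepatocytes, rose (10.96 to 22.0 CPM on ND, 47.3 to 60.5 CPM on CDAHFD, log2 change 1.66 ± 0.15 SE, edgeR adjusted p = 1.79e-08). Mat1a, the synthase of the adult liver, was at 2417 to 3033 CPM on ND and 1711 to 2585 CPM on CDAHFD and was not called (adjusted p = 0.107). Gnmt, which consumes S-adenosylmethionine, fell (1871 to 2186 CPM on ND, 536 to 773 CPM on CDAHFD, log2 change -1.63 ± 0.15 SE). Csad, which makes the taurine precursor hypotaurine, fell (633 to 881 CPM on ND, 48.6 to 72.0 CPM on CDAHFD, log2 change -3.60 ± 0.15 SE, edgeR adjusted p = 7.07e-14). Bhmt, which remethylates homocysteine from betaine, was at 929 to 2161 CPM on ND and 1087 to 1726 CPM on CDAHFD and was not called.

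Glucose and glycogen genes moved in both directions, 12 of 41 higher and 15 lower (median -0.093, or 0.28 by library size with 17 higher and 9 lower, 14 higher and 13 lower without a filter). G6pc, which releases glucose in the last step of gluconeogenesis, was at 229.8, 433, 423 and 210.1 CPM on ND and 96.8, 83.7, 43.0 and 109 CPM on CDAHFD (log2 change -1.97 ± 0.29 SE, edgeR adjusted p = 5.34e-05). Of the subunits that target protein phosphatase 1 to glycogen, some fell, Ppp1r3b (93.4 to 189 CPM on ND, 20.6 to 40.6 CPM on CDAHFD, log2 change -2.27 ± 0.32 SE) and Ppp1r3c (29.2 to 77.8 CPM on ND, 6.80 to 14.97 CPM on CDAHFD, log2 change -2.19 ± 0.32 SE). Pck1, which feeds gluconeogenesis, was at 1629 to 2071 CPM on ND and 1319 to 2602 CPM on CDAHFD and was not called. The myeloid hexokinase Hk3 rose (1.86 to 2.95 CPM on ND, 21.0 to 30.3 CPM on CDAHFD, log2 change 3.43 ± 0.25 SE, edgeR adjusted p = 5.92e-10). Genes of the urea cycle and amino acid catabolism fell in 29 of 39 cases and rose in 1 (median -0.61, or -0.24 by library size with 3 higher and 16 lower, 1 untested). The alanine transaminase Gpt2 was the only member to rise (log2 change 0.67 ± 0.12 SE, edgeR adjusted p = 9.77e-05).

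Cytochromes P450 of families 1 to 3, which oxidize drugs, steroids and fatty acids, fell in 28 of 38 tested cases and rose in 2 (median -0.90, 21 untested). Cyp2c29 was at 2200.1, 2348, 2181 and 2291 CPM in the ND-fed and 131, 115, 103 and 70.9 CPM in the CDAHFD-fed libraries (log2 change -4.43 ± 0.22 SE, edgeR adjusted p = 3.51e-12), a 21.5-fold fall seen in all 4 CDAHFD-fed libraries. Cyp3a11, a major drug oxidase of mouse liver, fell (3759 to 5855 CPM on ND, 1489.8 to 2116 CPM on CDAHFD, log2 change -1.53 ± 0.17 SE). Cyp1a2 was at 526 to 641 CPM on ND and 507 to 627 CPM on CDAHFD and was not called. Cyp1b1, found mainly outside hepatocytes, rose (0 to 1.24 CPM on ND, 3.08 to 7.48 CPM on CDAHFD, log2 change 2.85 ± 0.58 SE, edgeR adjusted p = 0.000413). Cyp2b9 lies at chr7:26173350-26210661 (GRCm38.p6), near Cyp2a and other Cyp2 genes. Of 5 such neighbours tested, 1 was called higher and 1 lower (median 0.26, or 0.62 by library size with 2 higher and 1 lower, or -0.089 to -0.028 without ND-fed replicate 2 or CDAHFD-fed replicate 1, 5 untested). Cyp2a22 rose (2.01 to 4.05 CPM on ND, 9.09 to 17.2 CPM on CDAHFD, log2 change 2.07 ± 0.28 SE, edgeR adjusted p = 3.81e-06), a change that differed from that in Cyp2b-null females (males minus females 3.30 ± 0.45 (SE), edgeR adjusted p = 6.99e-05). Cyp2f2 fell (959.6 to 1095 CPM on ND, 421 to 607 CPM on CDAHFD, log2 change -0.94 ± 0.17 SE). Cyp2a4, at 28.4 to 138 CPM on ND and 72.3 to 171 CPM on CDAHFD, and Cyp2a5, at 327 to 537 CPM on ND and 479.9 to 563 CPM on CDAHFD, were not called. Without ND-fed replicate 4 Cyp2a5 was called higher (log2 change 0.57, edgeR adjusted p = 0.0403). Cyp2a4 and Cyp2a5 are nearly identical in sequence and their separate levels are uncertain.

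UDP-glucuronosyl and sulfotransferases fell in 15 of 23 tested cases and rose in 2 (median -0.71, 18 untested). Ugt1a1, which conjugates bilirubin, fell (262 to 289 CPM on ND, 164 to 208 CPM on CDAHFD, log2 change -0.50 ± 0.11 SE, edgeR adjusted p = 0.000850), its level being uncertain because Ugt1a genes share exons. Glutathione transferases gave 4 higher and 8 lower of 19 (median -0.27, or 0.11 by library size with 6 higher and 7 lower, 5 untested). Gstm3 rose (12.03 to 22.1 CPM on ND, 54.5 to 167 CPM on CDAHFD, log2 change 2.55 ± 0.41 SE, edgeR adjusted p = 0.000218). Gstm1 was at 499.6 to 681 CPM on ND and 408 to 709 CPM on CDAHFD and was not called, and reads of the similar Gstm genes may be shared. Flavin monooxygenases and carboxylesterases gave 2 higher and 8 lower of 17 (median -0.22, or 0.15 by library size with 5 higher and 6 lower, 9 untested). The carboxylesterase Ces2a was at 476, 543, 511 and 491 CPM in the ND-fed and 47.0, 44.7, 33.3 and 49.5 CPM in the CDAHFD-fed libraries (log2 change -3.54 ± 0.17 SE, edgeR adjusted p = 5.76e-13).

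Antioxidant and NRF2 target genes were higher in 12 of 28 cases and lower in 6 (median 0.15, or 0.52 by library size with 17 higher and 3 lower, 1 untested). Slc7a11, the cystine importer for glutathione synthesis, was at 0.109, 0, 0.207 and 0 CPM on ND and 6.64, 9.13, 11.7 and 7.68 CPM on CDAHFD (ratio 108, exact 95% counting interval 29.6 to 895; edgeR adjusted p = 2.65e-09). The quinone reductase Nqo1 rose (2.46 to 7.87 CPM on ND, 15.96 to 21.5 CPM on CDAHFD, log2 change 1.72 ± 0.23 SE, edgeR adjusted p = 2.90e-06), and heme oxygenase (Hmox1) rose (9.59 to 14.98 CPM on ND, 54.8 to 80.7 CPM on CDAHFD, log2 change 2.47 ± 0.19 SE). Catalase (Cat), a peroxisomal enzyme, fell (3219 to 3709 CPM on ND, 1463 to 1818 CPM on CDAHFD, log2 change -1.09 ± 0.12 SE). The list of nuclear receptors also held Ahr, Arnt and Por, which are not nuclear receptors and were not called. Of its 31 tested genes, none was called higher and 10 lower (median -0.23, or 0.14 by library size with 6 higher and 2 lower, 2 untested). The xenobiotic receptor Nr1i2 (PXR) fell (67.7 to 80.5 CPM on ND, 44.0 to 54.9 CPM on CDAHFD, log2 change -0.55 ± 0.13 SE, edgeR adjusted p = 0.00155). Nr1i3 (CAR), the receptor that induces Cyp2b10, was at 65.6, 53.7, 57.1 and 100.05 CPM on ND and 66.3, 38.4, 48.7 and 41.6 CPM on CDAHFD and was not called (adjusted p = 0.153).

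Genes of hepatocyte identity were lower in 12 of 23 cases and higher in 1 (median -0.41, or -0.042 by library size with 3 higher and 6 lower). Transthyretin (Ttr) was at 4112, 5805, 5621 and 5346 CPM on ND and 2088, 2797, 1808 and 2635 CPM on CDAHFD (log2 change -1.16 ± 0.21 SE, edgeR adjusted p = 0.000140). The transcription factor Hnf4a fell (668 to 767 CPM on ND, 527 to 589 CPM on CDAHFD, log2 change -0.39 ± 0.12 SE). Hepatocytes near the central vein and near the portal tract express different enzymes. Of 23 pericentral genes, 5 were called higher and 9 lower (median -0.093, or 0.27 by library size with 6 higher and 6 lower). Glutamine synthetase (Glul) rose (953 to 1099 CPM on ND, 1422 to 1883 CPM on CDAHFD, log2 change 0.71 ± 0.13 SE, edgeR adjusted p = 0.000122) and the ammonium transporter Rhbg rose (4.76 to 10.03 CPM on ND, 30.8 to 44.0 CPM on CDAHFD, log2 change 2.61 ± 0.24 SE), while Cyp2c29 of the same zone fell. Periportal genes were called higher in 5 and lower in 10 of 19 cases (median -0.54). Histidine ammonia-lyase (Hal) fell (272 to 651 CPM on ND, 121 to 209 CPM on CDAHFD, log2 change -1.38 ± 0.26 SE). Serine dehydratase (Sds) was at 58.1 to 101 CPM on ND and 53.2 to 87.5 CPM on CDAHFD and was not called. Retinoid and alcohol dehydrogenase genes fell in 13 of 22 cases and rose in 2 (median -0.60, or -0.23 by library size with 4 higher and 6 lower, 5 untested). The alcohol dehydrogenase Adh1 fell (log2 change -0.56 ± 0.12 SE, edgeR adjusted p = 0.000726).

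Acute phase proteins are secreted by hepatocytes in inflammation. Genes of these proteins and of iron handling were higher in 16 of 34 cases and lower in 10. The median was 0.34, or 0.70 by library size with 20 higher and 4 lower. Lipocalin-2 (Lcn2), which withholds iron from bacteria, was at 0.984, 0.895, 3.11 and 1.09 CPM on ND and 174, 270.0, 298 and 304 CPM on CDAHFD (log2 change 7.47 ± 0.28 SE, edgeR adjusted p = 7.07e-14). Serum amyloid A1 (Saa1) rose (22.2 to 39.3 CPM on ND, 160.1 to 309.7 CPM on CDAHFD, log2 change 2.82 ± 0.32 SE), its reads possibly shared with Saa2. Hepcidin (Hamp), the iron-regulating hormone, was at 185, 227, 339 and 491 CPM on ND and 161, 272, 141 and 222 CPM on CDAHFD and was not called (adjusted p = 0.204). Of 42 complement and coagulation factors, 28 were called lower and 4 higher (median -0.42, or -0.058 by library size with 9 higher and 8 lower). Prothrombin (F2) fell (2146 to 2332 CPM on ND, 1282 to 1765 CPM on CDAHFD, log2 change -0.53 ± 0.13 SE, edgeR adjusted p = 0.00177). C1qb, a complement chain made by macrophages, rose (15.7 to 17.4 CPM on ND, 98.7 to 157 CPM on CDAHFD, log2 change 2.85 ± 0.45 SE). Of 37 stress response genes, 10 were called higher and 11 lower (median -0.16, or 0.20 by library size with 12 higher and 3 lower, 7 lower without CDAHFD-fed replicate 3, 1 untested). The stress-induced factor Atf3 rose (0.436 to 1.86 CPM on ND, 17.8 to 31.2 CPM on CDAHFD, log2 change 4.74 ± 0.37 SE, edgeR adjusted p = 2.26e-09) and the cytokine Gdf15 rose (1.53 to 5.45 CPM on ND, 8.22 to 14.9 CPM on CDAHFD, log2 change 2.22 ± 0.35 SE). Ddit3 (CHOP) was at 6.67 to 16.1 CPM on ND and 6.01 to 17.4 CPM on CDAHFD and was not called. Circadian genes gave 3 higher and 5 lower of 19 (median -0.068, or 0.29 by library size with 3 higher and 3 lower, or 0.012 without ND-fed replicate 4, 3 lower without ND-fed replicate 3 or CDAHFD-fed replicates 3 or 4, 6 higher and 6 lower without a filter, 1 untested).

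**Figure D2:**
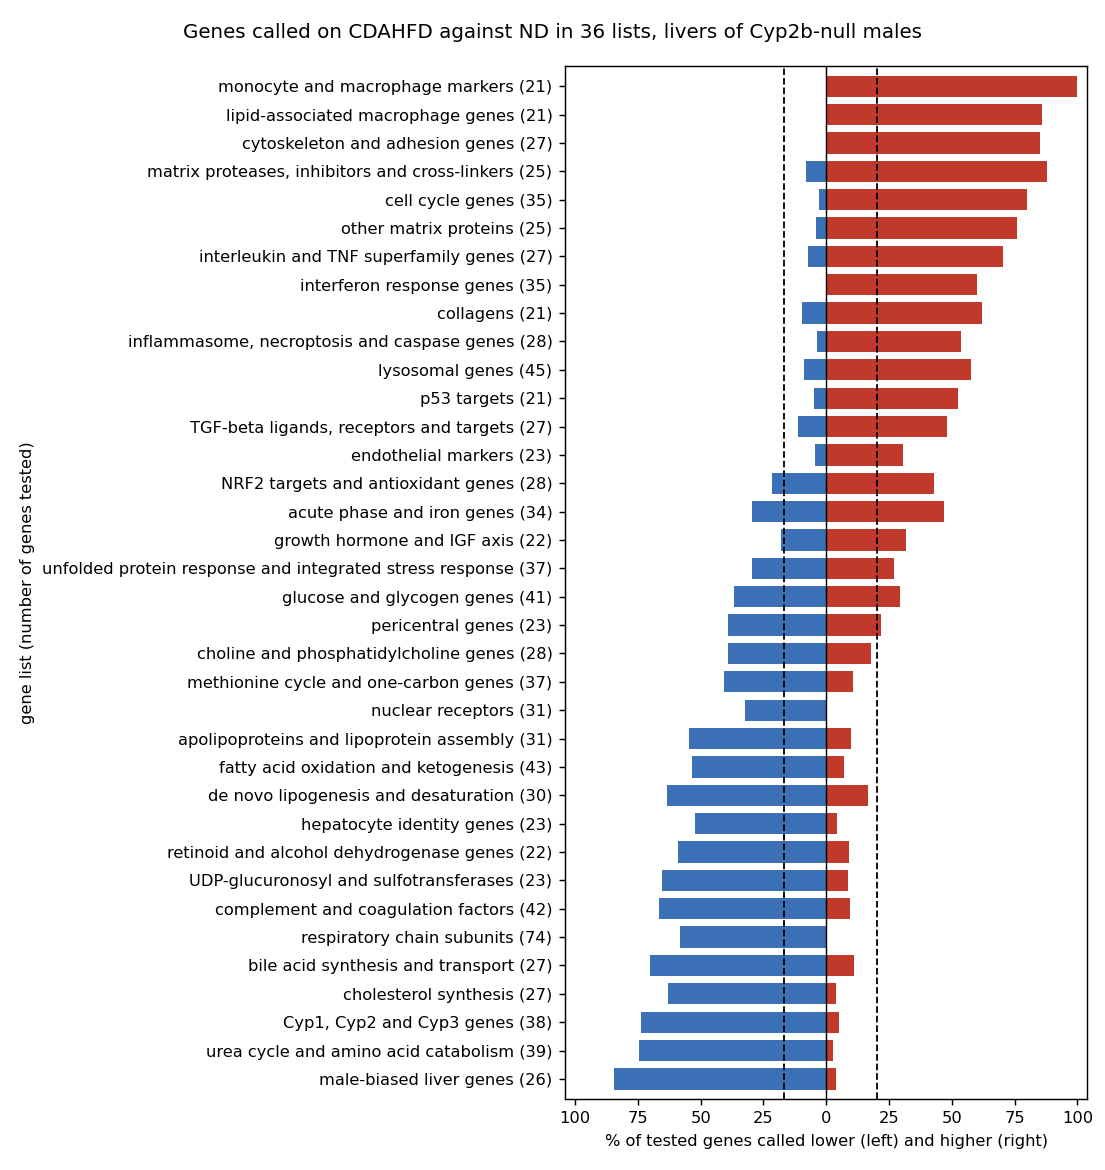
Share of tested genes called higher (right) and lower (left) on CDAHFD in Cyp2b-null males, in percent and with TMM scaling, for the 36 gene lists with at least 20 tested genes, with the number tested beside each name. Dashed lines mark the shares over all genes tested, 20.2% higher and 17.0% lower.

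Male-biased liver genes fell on CDAHFD. Pulses of growth hormone acting through STAT5B maintain the male pattern of expression in mouse liver, which includes the major urinary proteins (Mup), Hsd3b5 and Cyp4a12a. Of 26 tested, 22 were called lower and 1 higher, with a median log2 change of -2.66, 1 untested. The steroid reductase Hsd3b5 was at 207, 243, 264 and 287 CPM in the ND-fed and 0.475, 0.513, 0.658 and 4.04 CPM in the CDAHFD-fed libraries (log2 change -7.76 ± 0.97 SE, edgeR adjusted p = 3.79e-05). Mup7 was at 2325, 6306, 3111 and 4187 CPM in the ND-fed and 24.99, 19.99, 17.8 and 133 CPM in the CDAHFD-fed libraries (log2 change -6.38 ± 1.31 SE, edgeR adjusted p = 0.00186). Mup17 was at 309, 926, 235 and 628 CPM in the ND-fed and 2.53, 3.08, 1.97 and 3.64 CPM in the CDAHFD-fed libraries (log2 change -7.59 ± 0.98 SE). The diets did not overlap for these genes, and replicate 4 was the highest of the CDAHFD-fed group for each. Mup genes are nearly identical in sequence and their separate levels are uncertain. Serpina1e was at 7901, 9879.6, 7382 and 7873 CPM in the ND-fed and 664, 436, 213 and 2331 CPM in the CDAHFD-fed libraries (log2 change -3.18 ± 1.02 SE, edgeR adjusted p = 0.0272). Serpina4-ps1 was at 24.1, 17.2, 24.6 and 56.7 CPM in the ND-fed and 0.158, 0.103, 0.329 and 0.808 CPM in the CDAHFD-fed libraries (log2 change -6.56 ± 0.86 SE). The steroid hydroxylase Cyp2d9 fell (1436 to 1762 CPM on ND, 230.5 to 344 CPM on CDAHFD, log2 change -2.50 ± 0.22 SE), and the organic anion carrier Slco1a1 fell (729 to 791 CPM on ND, 62.2 to 212 CPM on CDAHFD, log2 change -2.65 ± 0.45 SE). Trim24, a transcriptional cofactor, was the gene on this list that rose (log2 change 0.91 ± 0.21 SE, edgeR adjusted p = 0.00189). Whether Trim24 is male-biased in these livers was not tested.

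Replicate 4 of the CDAHFD-fed group carried more of these transcripts than the other 3. The list summed to 19744, 32892, 23446 and 26063 CPM in the ND-fed and 3162, 2986, 2501 and 5539 CPM in the CDAHFD-fed libraries, so that replicate 4 lay between the other CDAHFD-fed libraries and the ND-fed libraries. Without it, 22 members were called lower and 1 higher, and the median log2 change was -2.64 instead of -2.66. Single genes moved by more than 1.5-fold, Hsd3b5 to -8.75, Mup7 to -7.58 and Serpina1e to -4.24. The call of Serpina1e was lost without ND-fed replicate 2 or CDAHFD-fed replicates 1, 2 or 3 (edgeR adjusted p of up to 0.0718), and it was kept when replicate 4 was left out (edgeR adjusted p = 0.0107). Ribosomal RNA and small noncoding RNA were highest in the same library, and their part in these levels was not tested.

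Of 16 tested female-biased genes, 7 were called higher, Sult1e1 and Abcc4 among them, and 4 lower (median 0.68, 10 untested). Sult3a1, a female-specific sulfotransferase, is listed at 0 counts in all 8 libraries. Of 22 genes of the growth hormone and IGF axis, 7 were called higher and 4 lower (median -0.023, or 0.35 by library size, or 0.0030 to 0.12 without ND-fed replicates 2, 3 or 4 or CDAHFD-fed replicates 2 or 3, 4 higher without ND-fed replicates 3 or 4 or CDAHFD-fed replicates 3 or 4, 6 higher and 7 lower without a filter (median 0.059), 3 untested). The growth hormone receptor Ghr fell (789 to 855 CPM on ND, 259 to 384 CPM on CDAHFD, log2 change -1.41 ± 0.16 SE, edgeR adjusted p = 4.22e-07). Igf1, a hepatic target of growth hormone, fell (617 to 799 CPM on ND, 360.4 to 526 CPM on CDAHFD, log2 change -0.71 ± 0.17 SE). Igfbp1, which binds IGFs and is suppressed by insulin, rose (16.6 to 52.4 CPM on ND, 96.0 to 128 CPM on CDAHFD, log2 change 1.56 ± 0.39 SE), and Stat5b was at 54.5 to 93.8 CPM on ND and 52.2 to 64.5 CPM on CDAHFD and was not called (adjusted p = 0.0722). Without ND-fed replicate 4 Stat5b was called lower (log2 change -0.53, edgeR adjusted p = 0.0187).

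**Figure D3:**
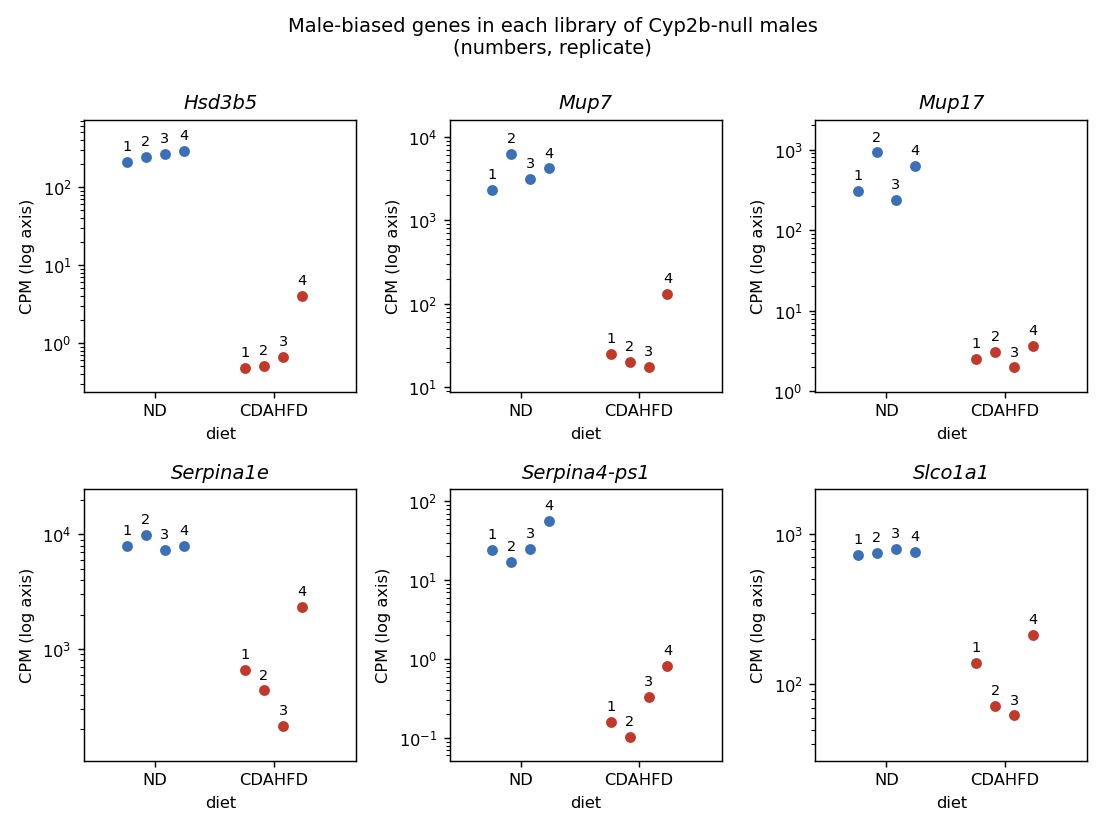
Level of 6 male-biased genes in each liver library of Cyp2b-null males (CPM, log axis), each point labelled with its replicate number. All CDAHFD-fed libraries lie below all ND-fed libraries, and CDAHFD-fed replicate 4 is the highest of its group for all 6 genes.

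Markers of tissues that can be carried into a liver sample were examined too. Adipocyte markers summed to 4609, 5966, 5573 and 5167 CPM in the ND-fed and 1765, 1690.0, 1262 and 1759 CPM in the CDAHFD-fed libraries. Nearly all of this was Car3, a carbonic anhydrase that hepatocytes also express, at 4602 to 5929 CPM on ND and 1260.1 to 1762 CPM on CDAHFD (log2 change -1.72 ± 0.22 SE, edgeR adjusted p = 3.05e-06), and the defining genes Adipoq and Plin1 had at most 2 counts in any of the 8 libraries. Of 3 tested, 2 were called lower and 0 higher (median -1.72, 6 untested). Cfd (adipsin) was at 3.06, 32.4, 6.63 and 15.5 CPM on ND and 0.791, 0.103, 0 and 0.202 CPM on CDAHFD (log2 change -5.89 ± 0.96 SE, edgeR adjusted p = 0.000160), its log2 change ranging from -7.22 to -5.09 when 1 library was left out and moving by over 1.5-fold without ND-fed replicate 2 or CDAHFD-fed replicates 1 or 3. Erythroid markers summed to 458, 507, 473 and 448 CPM in the ND-fed and 433, 345, 289.6 and 347 CPM in the CDAHFD-fed libraries, Hbb-bs having the most counts, with 0 of 5 called higher and 1 lower (median -0.22, or 0.15 by library size, 2 lower without CDAHFD-fed replicate 1, 4 untested). Pancreas markers summed to 13.9, 13.6, 15.1 and 23.5 CPM in the ND-fed and 8.38, 13.3, 7.89 and 9.90 CPM in the CDAHFD-fed libraries, Cela1 having the most counts, with 0 of 2 called higher and 1 lower (0 by library size, 9 untested), and the trypsinogen gene Prss1 is listed at 0 counts in all 8 libraries. Muscle markers summed to 6.45, 4.70, 4.76 and 4.14 CPM in the ND-fed and 7.91, 9.84, 10.4 and 9.09 CPM in the CDAHFD-fed libraries, 1 of 1 called higher and 0 lower (9 untested), the one being Des, which stellate cells share, and creatine kinase (Ckm) is listed at 0 counts. Mesothelial and gut markers summed to 51.1, 80.1, 81.8 and 114 CPM in the ND-fed and 85.3, 79.98, 66.1 and 59.6 CPM in the CDAHFD-fed libraries, Fabp2 having the most counts, with 0 of 4 called higher and 1 lower (median -0.65, or -0.30 by library size with 0 higher and 0 lower, or 0.26 without ND-fed replicate 4, 0 lower without ND-fed replicate 4 or CDAHFD-fed replicate 3, 1 higher and 0 lower without a filter, 6 untested). The part of these tissues in the other results was not tested.

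WT males on the same diets gave 4409 called genes (32.8%). Of the genes called in Cyp2b-null males, 3467 were called in WT males as well (69.1% of the calls in Cyp2b-null males and 78.6% of those in WT males), all of them in the same direction. The log2 changes of both genotypes correlated across genes with Pearson r = 0.901 and Spearman rho = 0.800, without independence between genes. The test of the difference itself called 0 of 13460 genes with edgeR, although 801 had an unadjusted p under 0.05. It called 2 with library size only, 2 with a likelihood ratio test and 95 without a filter, and DESeq2 called 3, which were Cyp2b9, Chpt1 and Dlec1. The deleted gene Cyp2b9 was called higher on CDAHFD in WT males (log2 change 5.34, edgeR adjusted p = 5.13e-06). Chpt1 had a log2 change of -1.93 in Cyp2b-null males and of -0.77 in WT males, a difference of -1.16 ± 0.20 (SE) that missed the threshold with edgeR (adjusted p = 0.0801) and passed it with DESeq2 (adjusted p = 0.000573). Dlec1, a gene first described as deleted in lung and esophageal cancer, had a log2 change of -1.84 ± 0.16 SE in Cyp2b-null males and of -0.82 in WT males (edgeR adjusted p of the difference = 0.365, DESeq2 adjusted p = 0.0481). The orexin receptor gene Hcrtr2 was too low to test in Cyp2b-null males, at 0.219 to 0.654 CPM on ND and 0 to 0.247 CPM on CDAHFD. Without CDAHFD-fed replicate 4 the test of the difference still called 0 genes with edgeR, with 759 at an unadjusted p under 0.05.

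Between the sexes the diet effect differed for some genes. In a fit of all 32 libraries, edgeR called 472 of 14020 genes (3.37%) for a difference between Cyp2b-null males and females, 289 with a more positive and 183 with a more negative change in males. In 272 of the 472 the sign was the same in both sexes. They included 14 of the male-biased genes and 10 of the monocyte and macrophage markers. The median log2 change of the male-biased list was -2.66 in males and -0.63 in Cyp2b-null females. A male-biased gene is by definition lower in females, and the part of that lower level in these differences was not tested. Cyp2c29 had a log2 change of -4.43 in males and -2.00 in females (males minus females -2.42 ± 0.27 (SE), edgeR adjusted p = 4.52e-07). Chpt1 differed as well, with -1.93 in males and -0.67 in females (males minus females -1.26 ± 0.21 (SE), edgeR adjusted p = 0.000521). Alas2, which starts heme synthesis in erythroid cells, fell (107 to 149.5 CPM on ND, 48.2 to 68.1 CPM on CDAHFD, log2 change -1.15 ± 0.16 SE) and had a log2 change of 1.425 in females (males minus females -2.57 ± 0.27 (SE), edgeR adjusted p = 1.46e-07). Mup20 (darcin), a pheromone protein, was at 1063 to 2502 CPM on ND and 940.3 to 1165 CPM on CDAHFD in males, not called, and had a log2 change of 4.75 in females (males minus females -5.71 ± 0.58 (SE), edgeR adjusted p = 1.40e-06). Without ND-fed replicate 1 Mup20 was called lower in males (log2 change -1.17, edgeR adjusted p = 0.0455). The lysosomal sulfatase Arsa was not called in males (log2 change 0.23 ± 0.11 SE) and had a change of 1.88 in females (males minus females -1.65 ± 0.16 (SE), edgeR adjusted p = 6.52e-08). Over the fits that left out 1 library this count was lowest, 222, without CDAHFD-fed males replicate 3, and it moved by over 1.5 times without ND-fed males replicate 2 (293) or 4 (313), ND-fed females replicate 1 (309) or 2 (306) and CDAHFD-fed females replicate 3 (314). Without CDAHFD-fed males replicate 4 it was 355.

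**Figure D4:**
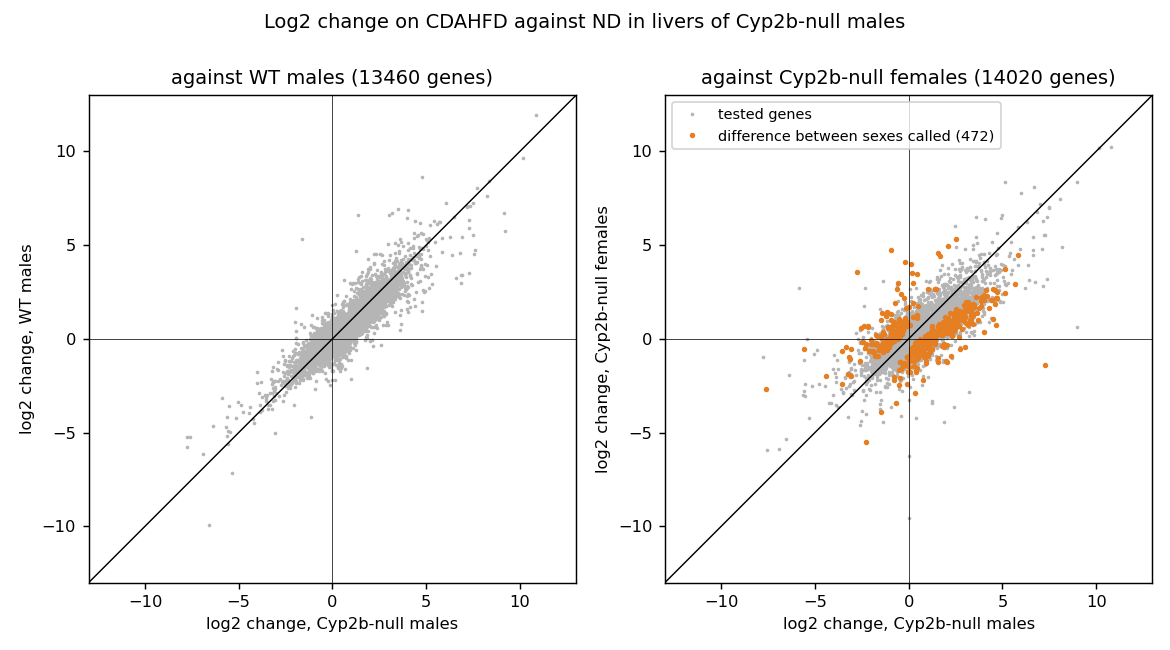
Log2 change on CDAHFD against ND of each tested gene in Cyp2b-null males (horizontal axis) against WT males (left) and Cyp2b-null females (right). The diagonal marks equal changes, grey points are tested genes, and orange points on the right are the 472 genes called for a difference between the sexes.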

How the data were processed

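Liver RNA was sequenced from 32 libraries, 4 per group. Per the submitters' processing notes and the methods of the study, reads were checked with FastQC, trimmed with Trimmomatic, aligned to GRCm38.p6 with GSNAP and assigned to genes with Subread, whose versions and strand setting are not given in the sources used here, and the authors deposited raw counts per gene, 1 table per sex. From these deposited counts, edgeR 4.0.16 (R 4.3.3, limma 3.58.1) was fitted here to the 16 male libraries in 4 groups: filterByExpr with a smallest count of 10 and total of 15, TMM factors, robust quasi-likelihood test and Benjamini-Hochberg adjustment over all genes tested, called at an adjusted p under 0.05. CPM are counts per 1000000 of the TMM-scaled total. The difference between sexes came from all 32 libraries. SE is the log2 change divided by the square root of the F statistic. Folds against a group without a count use a floor of 3 counts per library, and ratios with 1 to 3 counts in a group have exact binomial intervals; both cover counting error only. The steps were tested on simulated data.

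Of 41585 gene entries, 27 symbols had been turned into dates and were not named. Genes named in the text came from lead genes and largest changes of 60 gene lists, the largest changes over all genes, genes called for a sex difference, genes the study named for males, and markers of cell types; the members, the lists and this rule were chosen with earlier results of these data known. Outside it, Atp6v1a, C6, Car3, Dlec1, Gbp2b, Gla and Itgam were chosen after their values were seen, and Xist and Ddx3y as a check of sex. Some genes that the rule names are not reported here. Libraries of 1 group differed by more than sampling noise, with a chi-square of at least 6.004 per degree of freedom, so none was counted as a duplicate. The alternatives were DESeq2 1.42.0, RLE factors, library size only, no filter, a filter of 1 CPM in 4 libraries, fits without the groups outside the comparison, the replicate number as a block, a likelihood ratio test and leaving out each library. Promoter sequences and coordinates are from RefSeq (GRCm38.p6).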

Additional observations from a re-analysis of the deposited data

Results flagged for a closer look

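Among 380 sets of 4 values for the genes and library measures described above, 28 had a highest or lowest library of its group whose gap to its nearest neighbour was a larger part of the range than Dixon's limit for 4 samples allows. Chance singles out about 1 in 20 such sets. Values are in CPM unless a unit is given. CDAHFD-fed replicate 1 was the highest for Cyp2a4 (171), Cyp4a10 (418), Cyp4a14 (547) and Plin2 (708). CDAHFD-fed replicate 2 was the highest for Sult1e1 (23.2). CDAHFD-fed replicate 3 was the lowest for Csad (48.6), Tm7sf2 (56.2), Car3 (1260.1) and the summed CPM of adipocyte markers (1262). CDAHFD-fed replicate 4 was the highest for Cyp7a1 (174), Hsd3b5 (4.04), Mup7 (133) and Gbp2b (1.21). Gbp2b was named because its change moved most without this replicate, so its flag is not independent of that choice. ND-fed replicate 1 was the highest for C3 (13004), the total of assigned counts (10166959 counts) and the share of counts in the 10 most abundant genes (22.5%). ND-fed replicate 1 was the lowest for Gstm1 (499.6) and Apoe (25609). ND-fed replicate 2 was the highest for Mmp12 (0.895) and Pck1 (2071). ND-fed replicate 3 was the highest for Lcn2 (3.11), Atp6v0d2 (2.48), Cx3cr1 (1.04) and Xist (3.11). ND-fed replicate 4 was the highest for Pcna (20.5), the summed CPM of Rmrp, Rpph1 and Rn7sk (31.6) and the summed CPM of pancreas markers (23.5). ND-fed replicate 4 was the lowest for Tm7sf2 (209).

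The diet effect differed between Cyp2b-null males and females, by an edgeR test of the difference itself, for 32 of the genes named above. The log2 change was more positive in males, by the amount given, for Atp6v0d2 (3.91), Cyp2a22 (3.30), Abcc4 (3.16), Igfbp1 (2.79), Thbs1 (2.71), Itgam (2.70), Il1rn (2.63), Ccnd1 (2.17), Oas3 (2.05), Hk3 (1.72), Cd68 (1.67), Csf1r (1.53), Adgre1 (1.53), Trim24 (1.32), Vim (1.21), Hmox1 (1.15) and Atp6v1a (0.68). It was more negative in males for Mup20 (-5.71), Elovl3 (-5.02), Mup17 (-4.91), C6 (-2.64), Alas2 (-2.57), Cyp2c29 (-2.42), Cyp2d9 (-2.32), G0s2 (-2.26), Arsa (-1.65), Dlec1 (-1.55), Chpt1 (-1.26), Ces2a (-1.11), Apoe (-0.84), Cyp2f2 (-0.83) and Il1rap (-0.69). Each of the 16 libraries of both sexes was left out in turn. Cyp2f2 (without ND-fed males replicate 2 or CDAHFD-fed males replicate 3, adjusted p up to 0.0718) and Mup17 (without CDAHFD-fed females replicate 3 or CDAHFD-fed males replicate 3, adjusted p up to 0.0604) each lost the call that way. The call was also lost in 14 fits of G0s2 (-2.55 to -1.94), 13 fits of Igfbp1 (2.56 to 3.05), 13 fits of Vim (1.077 to 1.44), 7 fits of Il1rap (-0.77 to -0.61), 9 fits of Apoe (-0.91 to -0.59) and 11 fits of Atp6v1a (0.51 to 0.78). Over the same fits the difference moved by over 1.5-fold for Oas3 (1.81 to 2.96), Mup17 (-5.88 to -4.48) and Elovl3 (-5.61 to -4.73).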

How the results depend on the processing

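The count of genes called for diet (5015) ranged from 4921 (replicate block) to 5954 (library size only) over the other tools, scalings, filters and tests, and over 4177 to 4783 when 1 library was left out, with 2305 to 2618 higher and 1872 to 2165 lower. With library size only, 5139 genes were higher and 815 lower. The genotype difference, 0 genes with edgeR, gave 3 with DESeq2, 2 with library size only, 95 without a filter, 2 with the likelihood ratio test and 0 to 2 when 1 library was left out. The sex difference (472) gave 923 without a filter, 726 with the likelihood ratio test, 701 with DESeq2 and 222 to 569 when 1 library was left out. The cause was not tested.

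Replicate numbers did not pair the libraries: the deviations of same-numbered ND-fed and CDAHFD-fed libraries correlated with r of -0.011, -0.022, 0.032 and 0.024, and 1 of the 8 libraries correlated best with its own number. With the replicate block, 4921 genes were called for diet, 2673 higher and 2248 lower, 0 for genotype and 444 for sex. Of 174 tested genes named here, 141 were called, 11 of which lost the call in at least 1 alternative and 15 others gained one, while 0 of the called genes changed direction. The log2 changes that missed the threshold with library size only were those of Adh1 (-0.20), C6 (-0.37), F2 (-0.17), Hnf4a (-0.027), Nr1i2 (-0.17) and Ugt1a1 (-0.14); that of Cidec (1.57) missed it when the WT males were left out of the fit, and that of Il1b (1.26) with the replicate block. Without a filter Abca1 (-0.36), Cyp2a5 (0.40), Cyp2b9 (-1.64), Cyp4a10 (-0.43), Cyp4a14 (-0.59), Cyp7a1 (-0.42), Hamp (-0.64), Mup20 (-0.96), Nr1i3 (-0.51) and Stat5b (-0.40) passed it, and with library size only Arsa (0.60), Clec4f (0.65), Cyp2a5 (0.77), Fn1 (0.49), Lamp1 (0.45) and Mdm2 (0.49). It was also passed by Cyp2a5 (0.43), Mup20 (-0.93) and Stat5b (-0.37) without the WT males, Mup20 (-0.95) with DESeq2, Cyp2b9 (-1.64) with the likelihood ratio test and Nr1i3 (-0.47) with the replicate block. At these depths 3 counts, the limit that a count of 0 allows, came to 0.247 to 0.671 CPM.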
